A study of Mus musculus with 6 samples.

Results

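Genes of the caspase, necroptosis and pyroptosis machinery were examined in cultured MC38, a line of mouse colon adenocarcinoma cells. The genes were chosen by name, Casp2, Casp8, Casp9, Ripk1, Ripk3, Mlkl, Gsdmd and Gsdme, and 7 of the 8 have a row among the 24181 genes of the count table. Ripk3 is not analysed here. By their labels, 3 samples are parental MC38 of wild-type genotype and 3 are MC38 expressing STING-N153S, a substitution in the endoplasmic reticulum protein STING, and the series sets one against the other. The libraries hold 3'-end fragments of polyadenylated RNA. The results below are from the 3 parental libraries. The 6 columns outside the wild-type set carry names that no sample label gives and outnumber the 3 STING-N153S samples, so they were not analysed here and no difference between genotypes is given. The deposited annotation calls the 3 parental columns biological replicates. No label says whether they came from separate cultures, so part of the spread between them may be technical. Replicate 3 stood apart, since 311 genes varied between the 3 libraries beyond counting error and 61 did without it.

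Regulated cell death runs along several routes that share these genes. In apoptosis, initiator caspases are activated on adaptor platforms and cut the executioner caspases. In necroptosis, RIPK1 and RIPK3 assemble through a shared motif and the phosphorylated pseudokinase MLKL permeabilises the plasma membrane, a step that active caspase-8 holds back. In pyroptosis, a protease cuts a gasdermin and frees a fragment that forms pores. STING signalling is known to feed into cell death in several cell types through interferon and tumour necrosis factor.

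The promoter sequences show how differently the start regions of these genes are built. RefSeq windows on GRCm38.p6, running from 250 bases before to 50 after the start, matched 6 of the 7 genes, with 7 windows because Ripk1 has a pair. Gsdmd was not matched. The 4 windows below belong to the gene with the highest level (Mlkl), to the 2 with nearly equal levels (Ripk1, downstream window, and Casp8) and to the gene with the lowest (Casp9). Each is written 5′ to 3′ on the strand of the gene, with capitals for letters inside a match to a searched motif.
Mlkl (chr8:111338156-111338455, minus strand): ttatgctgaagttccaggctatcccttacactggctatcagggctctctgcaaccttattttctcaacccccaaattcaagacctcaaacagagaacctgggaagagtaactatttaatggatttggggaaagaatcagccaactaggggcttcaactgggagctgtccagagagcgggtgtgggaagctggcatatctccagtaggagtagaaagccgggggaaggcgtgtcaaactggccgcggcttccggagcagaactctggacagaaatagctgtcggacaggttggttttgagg
Ripk1 (chr13:34002624-34002923, plus strand): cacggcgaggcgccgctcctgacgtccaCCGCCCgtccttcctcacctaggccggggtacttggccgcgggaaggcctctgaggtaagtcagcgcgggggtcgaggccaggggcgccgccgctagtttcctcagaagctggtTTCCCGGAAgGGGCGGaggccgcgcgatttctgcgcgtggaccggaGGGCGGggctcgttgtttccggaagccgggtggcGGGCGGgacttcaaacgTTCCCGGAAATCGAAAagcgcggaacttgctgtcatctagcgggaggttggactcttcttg
Casp8 (chr1:58802252-58802551, plus strand): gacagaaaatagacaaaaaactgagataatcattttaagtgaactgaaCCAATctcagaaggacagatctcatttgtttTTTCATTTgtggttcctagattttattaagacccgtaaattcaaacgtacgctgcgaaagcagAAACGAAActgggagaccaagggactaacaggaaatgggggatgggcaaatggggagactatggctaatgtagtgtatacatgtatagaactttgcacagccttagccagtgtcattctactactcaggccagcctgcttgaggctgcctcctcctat
Casp9 (chr4:141793362-141793661, plus strand): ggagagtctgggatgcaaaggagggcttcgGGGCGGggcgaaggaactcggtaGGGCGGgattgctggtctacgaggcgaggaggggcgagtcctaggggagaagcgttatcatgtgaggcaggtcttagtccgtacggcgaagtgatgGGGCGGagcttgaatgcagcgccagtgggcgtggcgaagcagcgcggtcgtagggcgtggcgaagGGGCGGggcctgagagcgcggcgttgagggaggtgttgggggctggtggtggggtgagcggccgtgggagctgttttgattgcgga

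Each window was searched on both strands for 7 motifs, with overlapping matches counted. The interferon regulatory factor core, AANNGAAA, was found in 23.9% of 32851 windows of the same length. It matched 2 places in the Casp8 window and 1 in the printed Ripk1 window, and no other window of these genes. The STAT element, TTCNNNGAA, was in 8.30% of all windows. Among these genes it matched the printed Ripk1 window alone, at 2 places, one of which shares letters with the interferon regulatory factor match. The GC box, GGGCGG, was in 35.7% of all windows and matched 4 places in each of the printed Ripk1 and Casp9 windows, 3 in the other Ripk1 window, 2 in Casp2 and 1 in Gsdme. The CCAAT box was in 37.4% of all windows and matched 1 place in Casp8 and 2 in Casp2. The TATA box, TATAAA, was in 13.6% of all windows. The cyclic AMP element, TGACGTCA, was in 1.79%, and the AP-1 site, TGACTCA, in 5.20%. These last 3 had no match in the windows of these genes. The Mlkl window matched none of the 7 motifs. The windows also differed in CpG content. The printed Ripk1 window had 36 CpG and 67% G and C, Casp9 28 CpG and 66%, Mlkl 7 CpG and 51%, and Casp8 5 CpG and 42%, against a median of 7 CpG over all windows. Of the windows not printed, Casp2 had 26 CpG, Gsdme 24 CpG, and the other Ripk1 window 22 CpG and 62% G and C. The Casp8 and Gsdme windows lie inside the annotated gene bodies, whose 5′ ends are at 58795374 and 50263862. No window at those ends was searched. The printed Ripk1 window also lies inside its gene, and the other Ripk1 window spans the annotated start at 34002363. Ripk1, in both windows, and Casp8, in the window searched, had unlike CpG content at nearly the same level. Casp9, the lowest gene, had more CpG than Mlkl, the highest. Whether CpG content goes with level was not tested. A match describes these letters and was not tested as a site.

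Among the effectors, Mlkl had the highest level. Values are CPM, a gene's counts per 1000000 counts of its library, and with 3'-end fragments a count does not grow with transcript length. Mlkl (ENSMUSG00000012519, chromosome 8, 111311797 to 111338177, minus strand, GRCm38) had 257, 303 and 232 counts in parental replicates 1 to 3, or 76.5, 75.4 and 72.3 CPM. Their mean was 74.7 ± 2.19 CPM (SD, n = 3). The 3 libraries lay close together, and the lowest of them was above every value of the other effectors. Mlkl made up 47.97% ± 0.78 (SD, n = 3) of the counts of the 7 genes together. It ranked 2653rd among all genes of the table by mean CPM.

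Ripk1, the kinase and scaffold that tumour necrosis factor receptor signalling recruits, and Casp8, the initiator caspase that cuts it, stood at nearly the same level. Ripk1 (chromosome 13, 34002363 to 34037147, plus strand) had 100, 123 and 85 counts, or 29.8, 30.6 and 26.5 CPM, and a mean of 28.9 ± 2.18 CPM (SD, n = 3). Casp8 (chromosome 1, 58795374 to 58847503, plus strand) had 103, 108 and 85 counts, or 30.7, 26.9 and 26.5 CPM, and a mean of 28.0 ± 2.31 CPM (SD, n = 3). Their ranges overlapped, so the order of this pair was not resolved. Casp8 counts divided by Ripk1 counts gave 1.03, 0.878 and 1.00 in replicates 1 to 3, and the exact (Clopper-Pearson) 95% interval of the pooled ratio, 0.817 to 1.13, included 1. Such intervals cover counting error alone.

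Mlkl stood above both partners in each library. The ratio of Mlkl to Ripk1 counts was 2.57, 2.46 and 2.73, with a pooled interval of 2.25 to 2.94. The ratio to Casp8 was 2.50, 2.81 and 2.73, with a pooled interval of 2.34 to 3.07. Both pairs were picked after the levels were seen, and the ratios describe RNA ends, not protein.

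**Figure D1:**
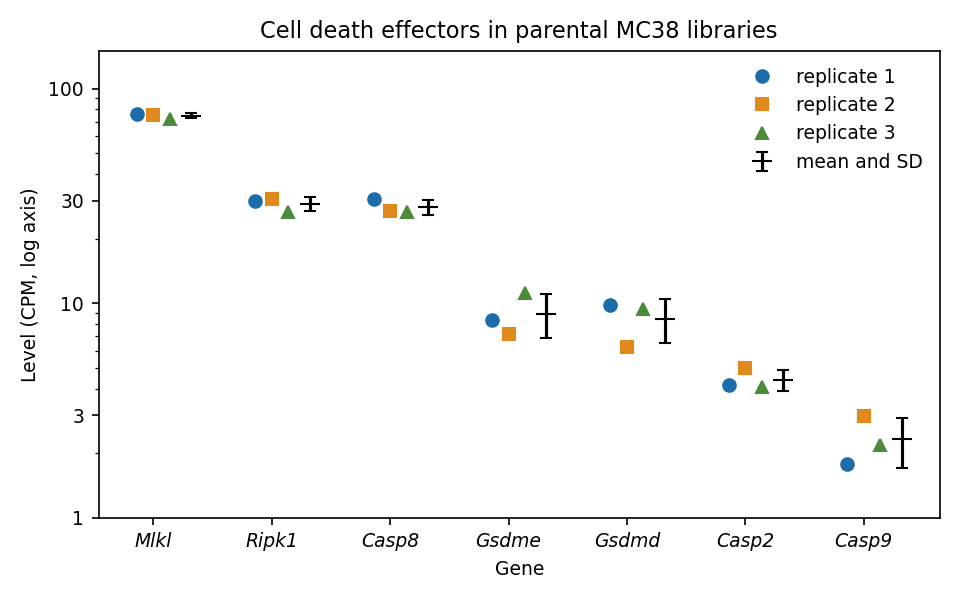
Level in CPM on a log axis of the 7 genes in each parental library, with symbols for replicates 1 to 3 and a bar for the mean and SD. Mlkl lies apart at 72.3 to 76.5 CPM, Ripk1 and Casp8 overlap near 28 CPM, the gasdermins overlap below them, and Casp9 is lowest.

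The gasdermins formed the next pair. Gsdme, whose product forms membrane pores once cut by a caspase (chromosome 6, 50188888 to 50263862, minus strand), had 28, 29 and 36 counts, or 8.34, 7.21 and 11.2 CPM, and a mean of 8.92 ± 2.06 CPM (SD, n = 3). Gsdmd, whose product the inflammatory caspases cut (chromosome 15, 75862327 to 75867408, plus strand), had 33, 25 and 30 counts, or 9.82, 6.22 and 9.35 CPM, and a mean of 8.46 ± 1.96 CPM (SD, n = 3). Replicate 1 was the highest library for Gsdmd and replicate 3 for Gsdme, and the ranges overlapped. The ratio of Gsdme to Gsdmd was 0.848, 1.16 and 1.20, with a pooled interval of 0.781 to 1.43, so neither gasdermin was shown to be higher. Both lay below the lowest Ripk1 and Casp8 library.

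The other initiator caspases had the lowest levels. Casp2, the initiator activated on the PIDDosome platform (chromosome 6, 42264985 to 42282508, plus strand), had 14, 20 and 13 counts, or 4.17, 4.98 and 4.05 CPM, and a mean of 4.40 ± 0.50 CPM (SD, n = 3). Casp9, the initiator activated on the apoptosome (chromosome 4, 141793612 to 141815976, plus strand), had 6, 12 and 7 counts, or 1.79, 2.99 and 2.18 CPM, and a mean of 2.32 ± 0.61 CPM (SD, n = 3). Every library of Casp2 was above every library of Casp9, and Gsdmd was above Casp2 without overlap. Counting alone bounds the pooled Casp9 level, from 25 counts, at 1.53 to 3.49 CPM (exact Poisson 95% interval). Casp8 counts were 17.2, 9 and 12.1 times those of Casp9, with a pooled interval of 7.86 to 18.6. Casp2 counts were 2.33, 1.67 and 1.86 times those of Casp9, with a pooled interval of 1.13 to 3.19.

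The order from high to low was thus Mlkl, Ripk1 with Casp8, Gsdme with Gsdmd, Casp2 and Casp9, and the mean of Mlkl was 32.2 times that of Casp9. Divided by the length of the principal GENCODE M21 transcript, a setting added after the data were seen, the means were 37.8 CPM per kilobase for Mlkl, 10.8 for Casp8, 8.86 for Ripk1, 4.72 for Gsdmd, 3.57 for Gsdme, 1.25 for Casp2 and 0.595 for Casp9. The places that changed were inside the 2 overlapping pairs. Without replicate 3 the means were 75.9 CPM for Mlkl, 30.2 for Ripk1, 28.8 for Casp8, 8.02 for Gsdmd, 7.77 for Gsdme, 4.57 for Casp2 and 2.39 for Casp9, so that the gasdermins changed places. By mean CPM over the 3 libraries, 7 of the 7 genes reached 1 CPM and 3 reached 10 CPM. Over all 24181 genes these shares were 49.5% and 31.2%. The median of the 7 means was 8.92 CPM. The median was 0.941 CPM over all 24181 genes and 22.2 CPM over the 11118 genes with enough counts to be tested.

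**Figure D2:**
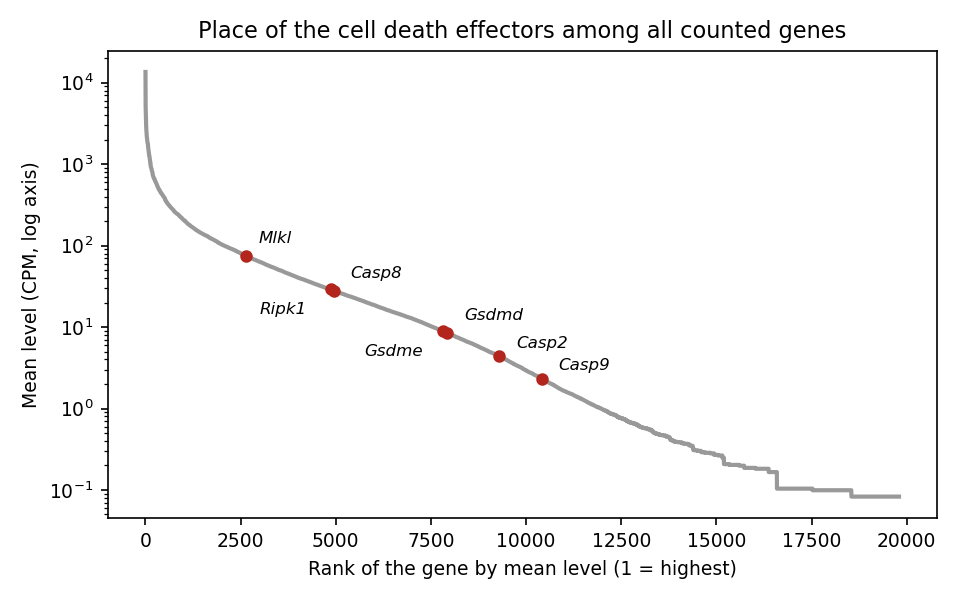
Mean CPM on a log axis against the rank of each gene with a count, the highest at rank 1, with the 7 genes as red points on the grey curve of all genes. They run from Mlkl at rank 2653 to Casp9 at rank 10408.

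Some of these genes overlap others in GENCODE M21 on GRCm38, and the sources used here do not say whether the authors counted by strand. The annotated body of Gsdme shares 10052 bases with Mpp6 on the opposite strand, which had 701, 868 and 592 counts, and the overlap reaches a last exon of a coding Gsdme transcript but not that of the principal one. The last exon of Casp9 overlaps Ctrc and Cela2a on the opposite strand. Ripk1 overlaps Serpinb6a (652, 756 and 579 counts) over 432 bases at its 5′ end, and Casp8 overlaps Gm37760 (16, 18 and 16 counts) at its 5′ side on the same strand. The pseudogene Gm17084 shares 511 bases with Ripk1 on the same strand. That overlap reaches a last exon of a coding Ripk1 transcript but not that of the principal one. If strand was not used, reads of partners on opposite strands cannot be told apart in the overlap. Strand does not separate Casp8 from Gm37760 or Ripk1 from Gm17084.

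The 7 genes were set against counting error between the parental libraries. The test, chosen with earlier results known, compared counts with expected counts by chi-square for each gene with at least 5 expected counts in each library. Of all 11118 genes tested, 2.80% passed at a Benjamini-Hochberg adjusted p below 0.05. None of the 7 genes passed. At an unadjusted p below 0.05 by this test there were 0 of the 7, against 13.2% of all genes tested. With pairwise exact binomial tests 0 of the 7 passed, against 289 of all 11118 genes. Adjusted p-values of the chi-square test ran from 0.593 (Gsdmd) to 0.954 (Casp2). The highest library over the lowest, after scaling by median ratios, was 1.06 for Mlkl, 1.15 for Ripk1, 1.16 for Casp8, 1.22 for Casp2, 1.56 for Gsdme, 1.60 for Gsdmd and 1.65 for Casp9, against a median of 1.21 over all genes tested. The coefficient of variation over the 3 libraries was 2.94% for Mlkl, where counting alone gives 6.19%, and 23.1% for Gsdmd, where counting alone gives 18.4%. The differences between libraries seen in the gasdermins thus did not pass the test, and the smallest difference detectable at this depth is not given. In bulk RNA, fewer cells that express a gene and less RNA per cell cannot be told apart.

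**Figure D3:**
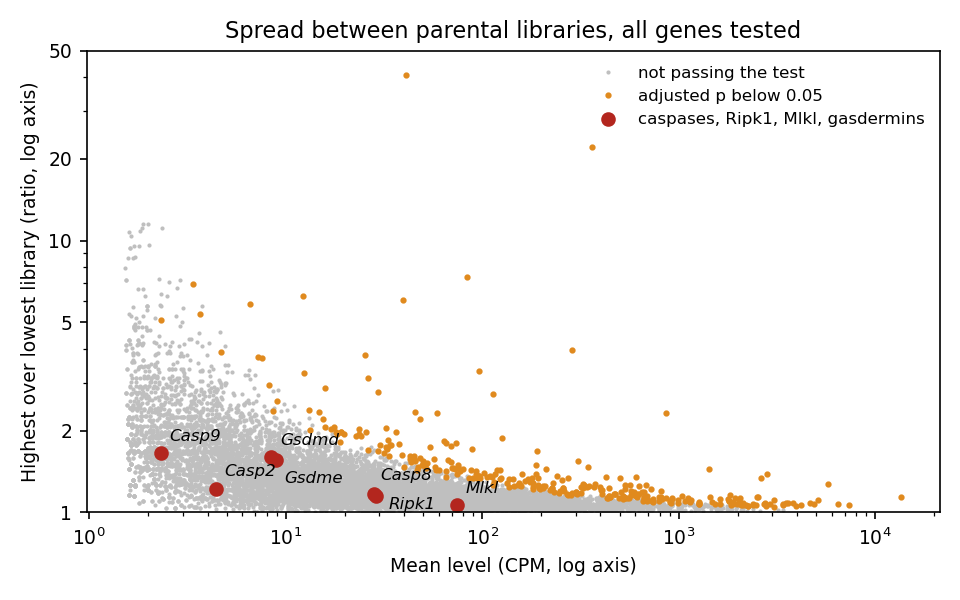
Ratio of the highest to the lowest parental library, after scaling, against mean CPM, both on log axes, for the genes tested, with genes that passed in orange and the 7 genes in red. The red points lie between 1.06 and 1.65, inside the grey cloud, and 4 of the 11118 genes are off the axis.

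Partners of these genes were taken from 9 lists chosen with earlier results of these data known, with 66 of 77 members analysed. Of the 66, 56 reached 1 CPM, 38 reached 10 CPM and 12 reached 100 CPM, and the median was 17.8 CPM. Over all 24181 genes 49.5% reached 1 CPM, 31.2% reached 10 CPM and 8.54% reached 100 CPM. Of 56 tested, 2 varied between the libraries, a share near the 2.80% of all genes. Without replicate 3 the number was 0, where 61 of 11126 genes passed. Among other caspases, 5 of 7 reached 1 CPM. Casp6, an executioner, had 31.4 ± 4.63 CPM, and Casp12, a caspase of the endoplasmic reticulum, 10.7 ± 2.53 CPM (SD, n = 3).

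Upstream of Casp8, all 8 death receptors and adaptors analysed of 11 listed were at 1 CPM or more. The receptor Tnfrsf1a led with 36.4 ± 1.47 CPM, followed by Traf2, a ubiquitin ligase adaptor, with 34.1 ± 5.997 CPM and Cflar, which encodes the caspase-8 regulator cFLIP, with 32.8 ± 0.72 CPM (SD, n = 3). Cflar counts were above those of Casp8 in 3 of 3 libraries. The ratio of Casp8 to Cflar was 0.954, 0.800 and 0.810, and its pooled interval, 0.726 to 0.996, ended just below 1. The adaptor Fadd had 24.1, 17.9 and 24.9 CPM, and its ratio to Casp8, a pair picked after the levels were seen, was 0.786, 0.667 and 0.941. Casp8, Ripk1, Cflar and Fadd thus had means between 22.3 CPM (Fadd) and 32.8 CPM (Cflar).

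Around Casp9, all 6 apoptosome and mitochondrial release genes were at 1 CPM or more. Cycs, which encodes cytochrome c, had 155 ± 9.002 CPM, Aifm1 134 ± 6.75 CPM and Htra2, a mitochondrial protease, 98.8 ± 7.80 CPM (SD, n = 3). Apaf1, the scaffold of the apoptosome, had 17, 29 and 12 counts, and Casp9 counts were 0.353, 0.414 and 0.583 of them, with a pooled interval of 0.258 to 0.700. Casp9 was thus below its scaffold in each library. Both PIDDosome partners of Casp2 were low, Pidd1 with 3.23 ± 0.44 CPM and Cradd with 2.54 ± 0.18 CPM (SD, n = 3). Of the inhibitor of apoptosis genes, 5 of 6 were at 1 CPM or more, led by Birc5 (survivin, also a mitotic gene) with 395 ± 21.7 CPM, Birc6 with 56.1 ± 3.45 CPM and Xiap with 18.5 ± 0.50 CPM (SD, n = 3).

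**Figure D4:**
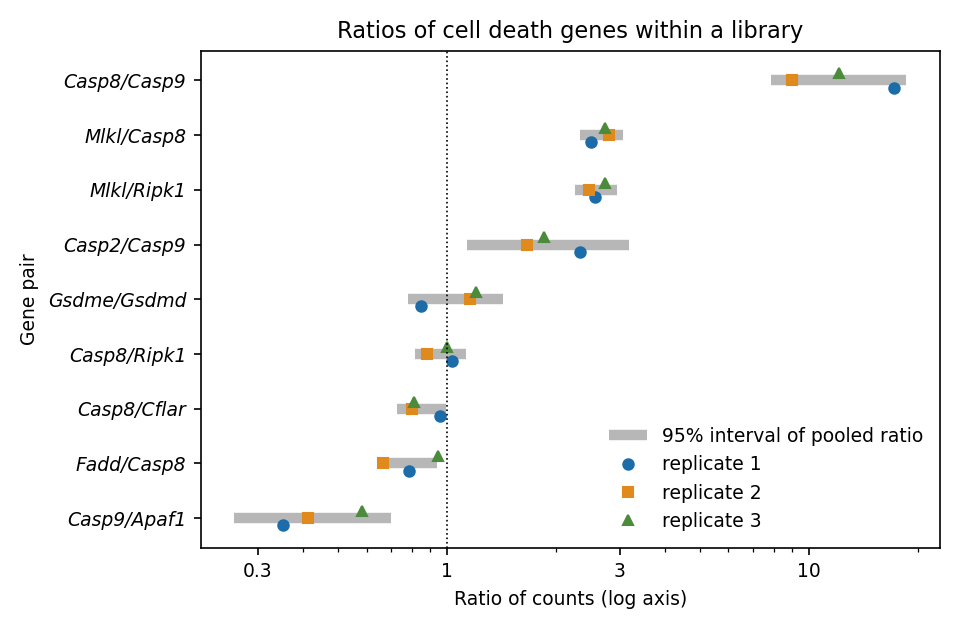
Ratio of the counts of gene pairs on a log axis, with symbols for the 3 libraries, grey bars for the exact 95% interval of the pooled ratio and a dotted line at 1. Casp8/Ripk1 and Gsdme/Gsdmd have intervals that include 1, and Casp9/Apaf1 lies below it in each library.

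The checkpoint genes that act on RIPK1 by ubiquitin chains or phosphorylation were all at 1 CPM or more, 13 of 13. Otulin, which removes linear ubiquitin, had 88.2 ± 7.63 CPM, Rbck1, a subunit of the linear ubiquitin ligase, 83.7 ± 4.71 CPM and the kinase Mapkapk2 81.3 ± 3.99 CPM (SD, n = 3). Map3k7, the kinase TAK1, was the list member that varied, with 31.3, 29.6 and 15.9 CPM. Its adjusted p was 0.00732 by the chi-square test, and its scaled highest library was 1.98 times the lowest. Replicate 3 was the low library, and without it no list gene passed.

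Of 9 necroptosis sensors and partners, 9 were at 1 CPM or more. The kinase Aurka, also a mitotic gene, had 252 ± 9.47 CPM, the ubiquitin ligase Stub1 209 ± 12.1 CPM and Chmp2a, an ESCRT membrane repair gene, 138 ± 3.63 CPM (SD, n = 3). Chmp4b, another ESCRT subunit, had 124.1, 155.5 and 130.8 CPM and also varied (adjusted p = 0.0460 by the chi-square test), and it did not pass when any single library was left out. The nucleic acid sensor Zbp1, which can activate RIPK3, had 3, 10 and 7 counts, or 0.893, 2.49 and 2.181 CPM.

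Around the gasdermins, 1 of the 8 inflammasome and pyroptosis partners analysed of 16 listed reached 1 CPM, and it was no sensor or adaptor. That was Ninj1, which ruptures the plasma membrane late in lytic death, with 86.0, 87.8 and 86.6 CPM. Pycard, the inflammasome adaptor ASC, had 1, 0 and 2 counts, and Il18 0, 2 and 0. The sensors Nlrp3 and Aim2 and the gasdermin Gsdma had 0 counts, as did Casp14, and the floor of 3 counts over the 3 libraries is 0.283 CPM. Casp1, the inflammasome caspase that cuts Gsdmd, had 2, 1 and 1 counts, or 0.385 ± 0.185 CPM (SD, n = 3), and Casp4, the mouse caspase-11, had 19, 17 and 22 counts, or 5.58 ± 1.31 CPM (SD, n = 3). The gasdermin RNA was thus counted where the inflammasome adaptor and Casp1 had fewer than 3 counts in each library and Casp4 had 17 to 22.

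Downstream of the caspases, 7 of 7 substrates and effector nuclease genes were at 1 CPM or more. Lmna, which encodes lamin A, had 996 ± 12.6 CPM, Parp1 129 ± 6.94 CPM and Rock1 120 ± 14.1 CPM (SD, n = 3).

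**Figure D5:**
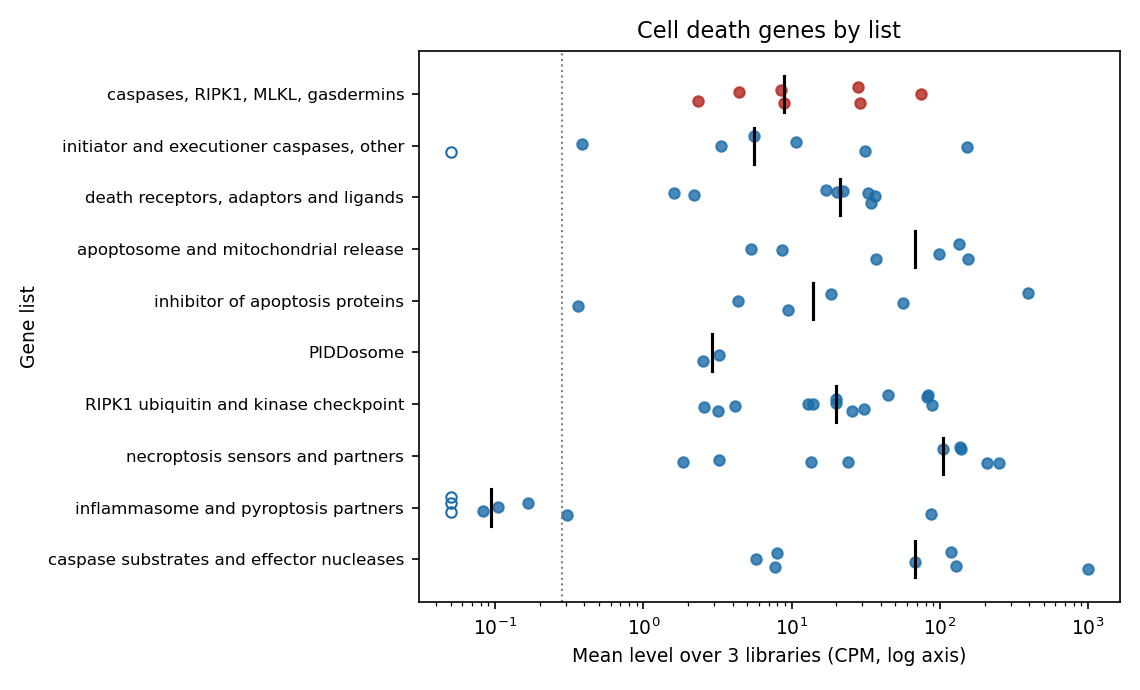
Mean CPM over the 3 libraries on a log axis for each gene of the 9 partner lists in blue and for the 7 genes in red, with black bars for medians above 0.05 CPM. Open circles mark genes with 0 counts, drawn at 0.05 CPM, and the dotted line is the floor of 0.283 CPM. The inflammasome list lies below that line apart from Pycard, just above it, and Ninj1.

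Genes with the most similar level over the 3 libraries were found by the root mean square difference of log2 CPM among protein-coding genes. Over 3 libraries this measures closeness in level more than a shared pattern. The nearest were Id1 (0.012) and Vta1 (0.027) to Mlkl, Acads (0.026) and AI413582 (0.027) to Ripk1, Rflnb (0.034) to Casp8, and Narf (0.090) and Zbtb45 (0.093) to Gsdme. Gsdmd was nearest to Cd248 (0.027) and Nrde2 (0.043), Casp2 to Zfp282 (0.057) and Dlg4 (0.062), and Casp9 to Abca7, with the same counts, and Rfx5 (0.072). Mlkl had 448 genes within 0.2 and Casp9 had 23, so such neighbours were common.

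The 3 libraries held 3210024 to 4020023 counts and 16224 to 16892 genes with a count. Of the intestinal epithelial markers, 3 of 10 were analysed, Krt8, Krt19 and Vil1, each with 1 count in all, so no epithelial marker analysed was at 1 CPM or more in cells labelled as colon adenocarcinoma. The 6 mesenchymal markers were at 1 CPM or more, led by Vim with 3058 ± 176 CPM (SD, n = 3). Of the leukocyte and endothelial markers, 4 of 9 and 4 of 5 were analysed and 0 reached 1 CPM. Their summed levels ran from 0.893 to 1.24 CPM and from 0.312 to 1.19 CPM. Most of the leukocyte sum was Cd68, with 2, 5 and 3 counts, or 0.925 ± 0.324 CPM (SD, n = 3). Ptprc had 1 count in all, and Lyz2 and Csf1r had 0. Among the endothelial markers Esam was highest with 2, 1 and 1 counts, and Pecam1 had 2 in all.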

How the data were processed

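Libraries were SCRB-seq 3'-end libraries with sample barcodes and molecular identifiers, per the labels' protocols and the file headers. The deposited values are raw counts per gene, and the file headers name Picard 2.18.26, Drop-seq tools 1.12, STAR 2.7.5b, build GRCm38 and GENCODE M25, with reads left untrimmed. The sources used here do not say whether counts were collapsed by molecular identifier, and intervals cover counting error only.

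In the deposited annotation 3 columns are wild type, and their replicate numbers tie them to the parental samples. The other 6 columns, in 2 sets, were not used, so the planned edgeR comparison of STING-N153S with parental cells was not run. The genes and lists were chosen with earlier results of these data known.

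CPM are counts over library totals (3358908, 4020023 and 3210024). Variation between libraries was tested over all genes expected to have 5 or more counts in every library, by a chi-square test with median-ratio scaling and Benjamini-Hochberg adjustment, which was tested on simulated counts. Of 9 pairs fixed for ratios, the 3 with Ripk3 were not computed, and 3 were added after the data were seen. Named genes are the chosen genes, the 3 highest of each list, those with 0 counts, those that passed the test and the 2 nearest to each chosen gene in log2 CPM. Casp1, Casp4, Zbp1 and Fadd were named after their values were seen, and 2 genes within that rule are not reported here. Gene positions and overlaps are those of GENCODE M21 on GRCm38. Tools were scipy 1.17.1, statsmodels 0.14.6, matplotlib 3.10.9, numpy 2.4.6 and pandas 2.3.3 in Python 3.11.15, and, in R 4.3.3, edgeR 4.0.16 and DESeq2 1.42.0 for alternative scalings.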

Additional observations from a re-analysis of the deposited data

How the results depend on the processing

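The number of genes varying between parental libraries, 311, was 61 to 274 with 1 library left out, and 61 came without replicate 3. Other scalings, filters and tests gave 274 to 374. None of the 7 genes passed in these 11 settings, though Casp9 had too few counts to be tested at a minimum expected count of 10. By median CPM, 5 of the 7 genes kept their place in the order, since Gsdmd then stood above Gsdme. With 1 library left out 5 to 7 did, with changes inside the Ripk1 and Casp8 pair or the gasdermin pair. Per kilobase of transcript, an alternative added after the data were seen, 3 did. The 27 ratios with 1 library left out moved by less than 1 SD. Leaving 1 of 3 values out cannot move a mean by 1 SD of those values, so this rule could not show whether the ratios were stable. The widest ratio, Casp8 to Casp9, ran from 10.6 to 14.7 with 1 library left out. Of 28 levels under other scalings, 3 moved by more than 1 SD (Mlkl, Ripk1 and Casp8). All 3 did so when the 20 highest genes were taken out of the library totals, which raises each level. The alternatives fixed for the comparison of STING-N153S with parental cells were not run. No paired analysis was possible because the parental group alone was analysed. Depth limits Casp9 most, at 25 counts in all.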
